A study of Mus musculus with 10 samples.

Results

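The genes examined here were 10 core pluripotency and Myc genes of mouse embryonic stem (ES) cells: *Pou5f1*, *Sox2*, *Sall4*, *Utf1*, *Lin28a*, *Lin28b*, *Gdf3*, *Myc*, *Mycn* and *Mycl*. They were taken by name, and every probe of the array whose RefSeq transcript accession belongs to one of them was used, which gave 14 probes for 10 of the 20972 genes named on the array. Of these genes, 7 had 1 probe, *Lin28b* and *Gdf3* had 2 and *Sall4* had 3. All samples were E14 ES cells, a feeder-free line, kept in serum with 1000 U/ml of Lif, a cytokine that holds ES cells undifferentiated. In the *Hottip* gRNA group (4 arrays) the cells carried dCas9-VP160, a Cas9 without nuclease activity that bears repeats of the Vp16 activation domain, together with 5 pooled plasmids for guide RNAs (gRNAs) to the promoter of the lncRNA *Hottip*. In the *Hoxa13* gRNA group (3 arrays) they carried dCas9-VP160 and a pool of 5 against the promoter of *Hoxa13*. The control (3 arrays) is described as non-targeting guides and dCas9 alone, and the paper states that it had no VP160. Differences from the control thus cover the VP160 domain and the targeting guides together. Both pools carried VP160, so the comparison between them does not include that domain. All plasmids were delivered by transient transfection, puromycin (2 μg/ml) was added after 24 h for a further 24 h, RNA was taken at 48 h, and the labels call the samples of a group biological replicates.

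Oct4, the product of *Pou5f1*, and its partner Sox2 bind DNA together and form the centre of the transcription factor network of ES cells, in which Sall4 and Utf1 also take part. Lin28 proteins are RNA-binding proteins that block the maturation of the let-7 microRNAs, and Gdf3 is a secreted ligand of the Nodal branch of the TGF-beta family. Myc, N-Myc and L-Myc are basic helix-loop-helix leucine zipper factors that act as dimers with Max and favour growth and self-renewal.

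The sequences of the guides are shown first, since they define the targets of the 2 pools. The 20 bases of each of the 10 guides were searched on both strands, with the letters NGG after them, in 32851 RefSeq promoter windows (GRCm38.p6, each from 250 bases before to 50 after a gene's start). All 5 guides of the *Hottip* pool had a site without mismatch in the *Hottip* window, ending 110 to 209 bases before its start, and all 5 of the *Hoxa13* pool in the *Hoxa13* window, ending 18 to 52 bases before its start. Windows were held for 7 of the 10 genes examined (8 windows, of which *Pou5f1* had 2), not for *Sall4*, *Gdf3* and *Myc*. The site nearest to a guide in any of these 8 windows had 5 mismatches and lay in the *Utf1* window, and the next nearest had 6 and lay in the *Sox2* window, both against *Hoxa13* guides. A site of the *Hoxa13* pool with at most 5 mismatches was held by 0.865% of all windows and one with at most 6 by 4.44%. For the *Hottip* pool the nearest sites had 8 mismatches, in the windows of *Utf1* and *Lin28a*, which 18.2% of all windows matched or bettered. Below, 1 guide site of the *Hottip* pool, 2 of the *Hoxa13* pool and the 2 nearest sites in windows of the genes examined are given 5′ to 3′, with the NGG in capitals.
mHottip_pro_sg1 at *Hottip* (chr6:52262643-52262665, minus strand): gcagtaagaaggtaaactcgGGG
Hoxa13_Pro_sg2 at *Hoxa13* (chr6:52260922-52260944, minus strand): catacgccgggggcgggccgGGG
Nearest site to Hoxa13_Pro_sg2 at *Utf1* (chr7:139943761-139943783, plus strand): cagacgcagagggcggtgcgGGG
Hoxa13_Pro_sg4 at *Hoxa13* (chr6:52260909-52260931, minus strand): cgggccgggggcgggccaatGGG
Nearest site to Hoxa13_Pro_sg4 at *Sox2* (chr3:34649799-34649821, minus strand): cgggcccgcagccggccgctGGG
In the *Utf1* window 2 of the bases next to the NGG matched without a break, and in the *Sox2* window 1.

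The targeted genes were checked before the genes of interest. Levels are given as the log2 of the processed signal minus the array's 75th percentile of that signal, called the scaled signal below. *Hoxa13*, a posterior homeobox gene, had levels of 3.60, 4.16, 3.88 and 3.17 on *Hottip* gRNA replicates 1 to 4, of −3.68, −4.80 and −4.31 on the arrays labelled *Hoxa13* gRNAs and of −5.84, −5.00 and −3.46 in the control (probe A_55_P1970075). It was well above background on all 4 *Hottip* gRNA arrays, on 0 of 3 arrays labelled *Hoxa13* gRNAs and on 0 of 3 control arrays, and the other *Hoxa13* probe gave the same counts. In the authors' table of log2 values, the 3 arrays labelled *Hoxa13* gRNAs held 7.03, 7.16 and 6.39 for A_55_P1970075, above the 5.88, 5.41 and 5.71 of the control. The other probe held 6.73, 6.59 and 6.65 there, above the 5.95, 6.18 and 6.02 of the control. On the scaled signal these groups overlapped with both probes. From its arrays the paper reports that *Hoxa13* guides raised *Hoxa13* and left the other Hoxa genes unchanged. Here the targeted gene was well above background on no array of the group named after it. The group is called by its label throughout. No probe was matched to *Hottip*.

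Several features of the arrays bear on all values below. The share of probes well above background ran from 31.9% to 41.4% per array, and the 75th percentile of the processed signal ran from 586 to 2572. *Hottip* gRNA and control arrays all lay on 1 slide with replicate 3 labelled *Hoxa13* gRNAs, whereas replicates 1 and 2 of that label lay on another. Replicate 1 labelled *Hoxa13* gRNAs had a spike-in slope of 1.16, against 0.900 to 0.982 on the other arrays. On control replicate 3, 21.5% of the spots of bright probes were marked as outliers by the scanner software and left out, the highest share of any array. On every array 12 of 12 ES cell markers (*Nanog*, *Esrrb*, *Zfp42*, *Klf4* and others) were well above background.

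None of the 10 genes was called in any comparison. All 14 probes could be tested, that is, each exceeded background clearly on 3 or more of the 10 arrays. In the fit over all probes (limma, Benjamini-Hochberg), 0 of 10 genes and 0 of 14 probes had an adjusted p under 0.05 for *Hottip* gRNAs against the control, where 0.718% of 22830 probes were called. The count was again 0 of 10 for arrays labelled *Hoxa13* gRNAs against the control (0.175% of 22830 probes called) and 0 of 10 for the 2 guide pools against each other (0.381% of 22825). In bulk RNA, fewer cells of a type and less RNA per cell cannot be told apart. The lowest adjusted p of a gene was 0.910, 0.452 and 0.433 in these 3 comparisons (limma). At an unadjusted p under 0.05, limma passed 0, 2 (*Pou5f1* and *Sall4*) and 0 of the 10 genes, beside 1837, 2503 and 2723 of all probes tested. In the authors' table the counts were also 0 of 10 in all 3 comparisons, where 0.363%, 0.109% and 0.306% of 22839 probes were called, and 0, 1 and 0 genes had an unadjusted p under 0.05.

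**Figure D1:**
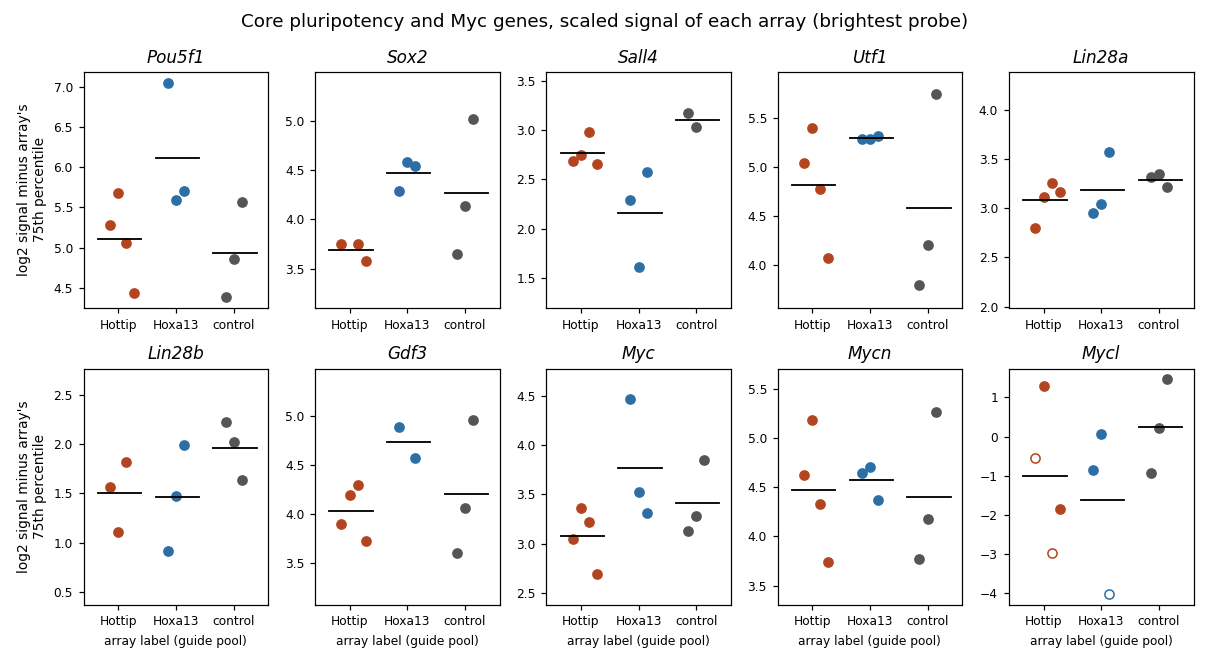
Scaled signal (log2 of the processed signal minus the array's 75th percentile) of the brightest probe of each gene, with 1 point per array, grouped by label, black lines for group means and open points for spots not well above background. Spots left out as outliers are not drawn, and the vertical scale differs between genes. The 3 *Sox2* points of the *Hottip* group lie below all 3 of the *Hoxa13* label, and the control spans all values of both pools for *Utf1* and *Gdf3*.

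*Pou5f1* had levels of 5.28, 5.68, 5.06 and 4.44 on *Hottip* gRNA replicates 1 to 4, of 7.06, 5.59 and 5.70 on the arrays labelled *Hoxa13* gRNAs and of 4.38, 4.85 and 5.57 in the control. All 3 arrays labelled *Hoxa13* gRNAs lay above all 3 control arrays, although 5.59 and 5.57 nearly met and the spot was saturated on control replicate 3, so that its level there is a lower limit. The group means were 6.11 ± 0.817 (SD, n = 3) for the *Hoxa13* label and 4.93 ± 0.596 (SD, n = 3) for the control, a difference of 1.18 (95% interval 0.04 to 2.32) with an unadjusted p of 0.0442 and an adjusted p of 0.452 from limma. An exact permutation test gave p = 0.1, the smallest that 3 arrays against 3 allow. Without replicate 1 of the *Hoxa13* label, the array of the deviating spike-in slope, the difference was 0.71 (adjusted p = 0.837, limma). Against the control, *Hottip* gRNAs differed by 0.18 (95% interval −0.89 to 1.25), and against the *Hoxa13* label by −1.002 (95% interval −2.07 to 0.07, adjusted p = 0.433 from limma), which became −0.53 without that array. The same probe had values in the authors' table of 15.52, 15.87 and 15.63 on the arrays labelled *Hoxa13* gRNAs and 15.65, 15.68 and 15.89 in the control, and the difference there was −0.07 (95% interval −0.60 to 0.47). The groups overlapped there, close to the highest value of that table, which was 15.999 to 16 on every array.

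*Sox2* encodes an HMG-box factor. Its levels were 3.75, 3.75 and 3.58 on *Hottip* gRNA replicates 1, 3 and 4, were 4.29, 4.59 and 4.54 on the arrays labelled *Hoxa13* gRNAs and were 3.65, 4.14 and 5.02 in the control. The spot of *Hottip* gRNA replicate 2 was marked as an outlier and left out of the fit, with a level of 4.289 had it been kept. Each *Hottip* gRNA array that was fitted lay below each array labelled *Hoxa13* gRNAs, and the control overlapped both. With the outlier spot kept the pools overlapped, since 4.289 exceeds the 4.288 of replicate 1 of the *Hoxa13* label. The difference between the guide pools was −0.78 (95% interval −1.71 to 0.15, adjusted p = 0.457 from limma, exact permutation p = 0.1, the smallest for 3 against 3), with *Hottip* gRNAs at 3.69 ± 0.0971 (SD, n = 3) and the *Hoxa13* label at 4.47 ± 0.162 (SD, n = 3). Against the control the differences were −0.58 (95% interval −1.51 to 0.35) for *Hottip* gRNAs and 0.20 (95% interval −0.73 to 1.13) for the *Hoxa13* label. *Sox2* had values in the authors' table of 13.63, 13.93, 13.89 and 14.35 after *Hottip* gRNAs, 14.29, 14.71 and 14.11 under the *Hoxa13* label and 14.51, 14.71 and 14.22 in the control, so that all 3 groups overlapped. On that scale *Hottip* gRNAs minus control was −0.53 (95% interval −1.15 to 0.09).

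*Sall4*, a zinc finger factor that binds with Oct4, was the only gene lower under the *Hoxa13* label than in both other groups without overlap. The brightest of its 3 probes (A_51_P349087) had levels of 2.69, 2.75, 2.98 and 2.66 after *Hottip* gRNAs, of 2.30, 1.61 and 2.58 on the arrays labelled *Hoxa13* gRNAs and of 3.17 and 3.03 on control replicates 1 and 2, with the spot of control replicate 3 left out as an outlier (3.07 if kept). Replicate 2 of the *Hoxa13* label, on the other slide, was lowest, and the *Hottip* gRNA arrays lay between the other groups. Under the *Hoxa13* label the level was lower than in the control by a difference of −0.94 (95% interval −1.88 to −0.0019, unadjusted p = 0.0496, adjusted p = 0.456 from limma). For that difference an exact permutation test gave p = 0.2. Between the guide pools it was 0.61 higher after *Hottip* gRNAs (95% interval −0.18 to 1.40, adjusted p = 0.482 from limma), and an exact permutation test gave p = 0.0286, the smallest that 4 against 3 allow. That difference was 0.34 without replicate 2 of the *Hoxa13* label and 0.20 with the slide as a block, and neither value was called (limma). *Hottip* gRNAs minus control was −0.33 (95% interval −1.22 to 0.56).

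The other *Sall4* probes did not follow the brightest. A_51_P145260 and A_55_P2173546, both dimmer, differed by 0.13 (95% interval −1.05 to 1.30) and by −0.08 (95% interval −0.97 to 0.81) between the *Hoxa13* label and the control, the former without *Hottip* gRNA replicate 1 and replicate 2 of the *Hoxa13* label, whose spots were outliers. The probes of *Sall4* therefore disagreed in sign in that comparison and, between the guide pools, gave 0.61, −0.19 and 0.10. The brightest probe had values in the authors' table of 12.68, 11.19 and 13.15 under the *Hoxa13* label and 13.28, 13.04 and 14.30 in the control, which overlapped, with a difference of −1.20 (95% interval −2.38 to −0.02, unadjusted p = 0.0463, adjusted p = 0.668 from limma). There the other 2 probes differed by −0.07 and −0.28 in that comparison.

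*Utf1*, which encodes a chromatin-bound protein of undifferentiated cells, had levels of 5.04, 5.39, 4.77 and 4.08 after *Hottip* gRNAs, of 5.28, 5.28 and 5.31 on the arrays labelled *Hoxa13* gRNAs and of 3.79, 4.20 and 5.74 in the control. The arrays labelled *Hoxa13* gRNAs lay within 0.03 of each other, and the control arrays spanned 1.94, wider than every other group. *Hoxa13* label minus control was 0.71 (95% interval −0.45 to 1.88) and *Hottip* gRNAs minus control 0.24 (95% interval −0.85 to 1.33). The same differences in the authors' table were −0.12 (95% interval −0.64 to 0.40) and 0.05 (95% interval −0.43 to 0.54).

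*Lin28a* had levels of 2.80, 3.11, 3.26 and 3.17 after *Hottip* gRNAs, of 2.95, 3.04 and 3.57 on the arrays labelled *Hoxa13* gRNAs and of 3.31, 3.35 and 3.21 in the control. It had the smallest spread within groups of the 10 genes on this scale (pooled SD 0.224), and its differences were −0.21 (95% interval −0.91 to 0.50) for *Hottip* gRNAs and −0.10 (95% interval −0.85 to 0.65) for the *Hoxa13* label against the control. Its narrow group ranges overlapped in all 3 comparisons. The pooled SD was 0.504 in the authors' table, with 12.22, 13.35 and 13.80 under the *Hoxa13* label and 14.07, 14.20 and 13.45 in the control, and the difference of −0.78 (95% interval −1.71 to 0.15) again crossed 0.

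*Lin28b*, the paralogue of *Lin28a*, was measured by the probe A_55_P1970905 at 1.57, 1.11 and 1.82 on *Hottip* gRNA replicates 1 to 3 (replicate 4 left out as an outlier), at 0.91, 1.47 and 2.00 under the *Hoxa13* label and at 2.23, 2.02 and 1.63 in the control. Both guide pools had lower means than the control, with overlap, at differences of −0.46 (95% interval −1.39 to 0.47) for *Hottip* gRNAs and −0.50 (95% interval −1.43 to 0.43) for the *Hoxa13* label. These comparisons share the control arrays. The dimmer probe A_52_P532355 gave −0.43 and 0.05, so the probes differed in sign for the *Hoxa13* label. The brighter probe had values in the authors' table of 10.37, 12.35 and 12.39 under the *Hoxa13* label, all below the 12.89, 12.69 and 12.51 of the control, with a difference of −0.99 (95% interval −2.23 to 0.26). The dimmer probe was there lower after *Hottip* gRNAs than in the control without overlap, by a difference of −0.70 (95% interval −1.35 to −0.04, adjusted p = 0.538 from limma, exact permutation p = 0.0286, the smallest for 4 against 3).

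*Gdf3* had 2 probes whose differences between the pools had the same sign on the scaled signal. The brighter (A_66_P107818) had levels of 3.90, 4.19, 4.29 and 3.73 after *Hottip* gRNAs, of 4.88 and 4.57 on replicates 1 and 3 labelled *Hoxa13* gRNAs, where replicate 2 was left out as an outlier (4.86 if kept), and of 3.60, 4.06 and 4.96 in the control. The dimmer (A_55_P2158448) had 0.84, 0.86, 1.23 and 0.51 after *Hottip* gRNAs and 1.39, 1.43 and 1.41 under the *Hoxa13* label, where the control had 1.33, 0.84 and 1.18. With both probes the *Hottip* gRNA arrays lay below those labelled *Hoxa13* gRNAs without overlap. The differences between the pools were −0.70 (95% interval −1.72 to 0.32) and −0.55 (95% interval −1.26 to 0.16), with adjusted p = 0.516 and 0.483 from limma and exact permutation p = 0.0667 and 0.0571. With both probes the groups overlapped in the authors' table, and the differences were 0.0073 (95% interval −0.78 to 0.79) and −0.21 (95% interval −0.96 to 0.53).

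*Myc*, whose probe was spotted 2 times on each array, had levels of 3.05, 3.36, 3.22 and 2.69 after *Hottip* gRNAs, of 4.47, 3.52 and 3.31 on the arrays labelled *Hoxa13* gRNAs and of 3.13, 3.28 and 3.85 in the control. The highest value was that of replicate 1 of the *Hoxa13* label, and the ranges overlapped narrowly between the pools, where 3.36 exceeded 3.31. *Hottip* gRNAs minus the *Hoxa13* label was −0.69 (95% interval −1.55 to 0.17, adjusted p = 0.471 from limma, exact permutation p = 0.0571), and −0.34 (adjusted p = 0.880, limma) without replicate 1 of the *Hoxa13* label. With all arrays it was −0.45 in the authors' table (95% interval −1.03 to 0.14), where every *Hottip* gRNA array (13.51, 13.70, 13.32 and 13.24) lay below every control array (13.71, 13.84 and 13.96) at a difference of −0.39 (95% interval −0.98 to 0.19, adjusted p = 0.776 from limma, exact permutation p = 0.0571). The mean of *Myc* after *Hottip* gRNAs was below those of both other groups on both scales, and none of these differences passed the test.

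*Mycn*, the family member known from embryonic and neural precursors, had levels of 4.62, 5.18, 4.33 and 3.74 after *Hottip* gRNAs, of 4.64, 4.70 and 4.37 under the *Hoxa13* label and of 3.76, 4.18 and 5.27 in the control. All 3 comparisons overlapped, and the differences of 0.07, 0.17 and −0.10 had 95% intervals that reached at most 1.24 from 0. *Mycn* changed sign between the scales in every comparison, with −0.02, −0.28 and 0.26 in the authors' table.

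*Mycl* was the gene measured worst. Its probe was well above background on 7 of 10 arrays and had levels of −0.55, 1.28, −2.97 and −1.84 after *Hottip* gRNAs, of −0.87, 0.06 and −4.03 under the *Hoxa13* label and of −0.95, 0.23 and 1.46 in the control. Its pooled SD was 1.78, against 0.224 to 0.658 for the other 9 genes. The means of both pools were below the control by differences of −1.27 (95% interval −3.75 to 1.21) and −1.86 (95% interval −4.51 to 0.79). These intervals were the widest of the 10 genes. The difference for *Hottip* gRNAs ran from −0.62 without replicate 3 to −2.04 without replicate 2 of that group. For the *Hoxa13* label it ran from −0.65 without replicate 3 to −2.70 without replicate 2, and it was −4.28 with the slide as a block. The last value rests on replicate 3 of that label alone, where the spot (−4.03) was not well above background.

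**Figure D2:**
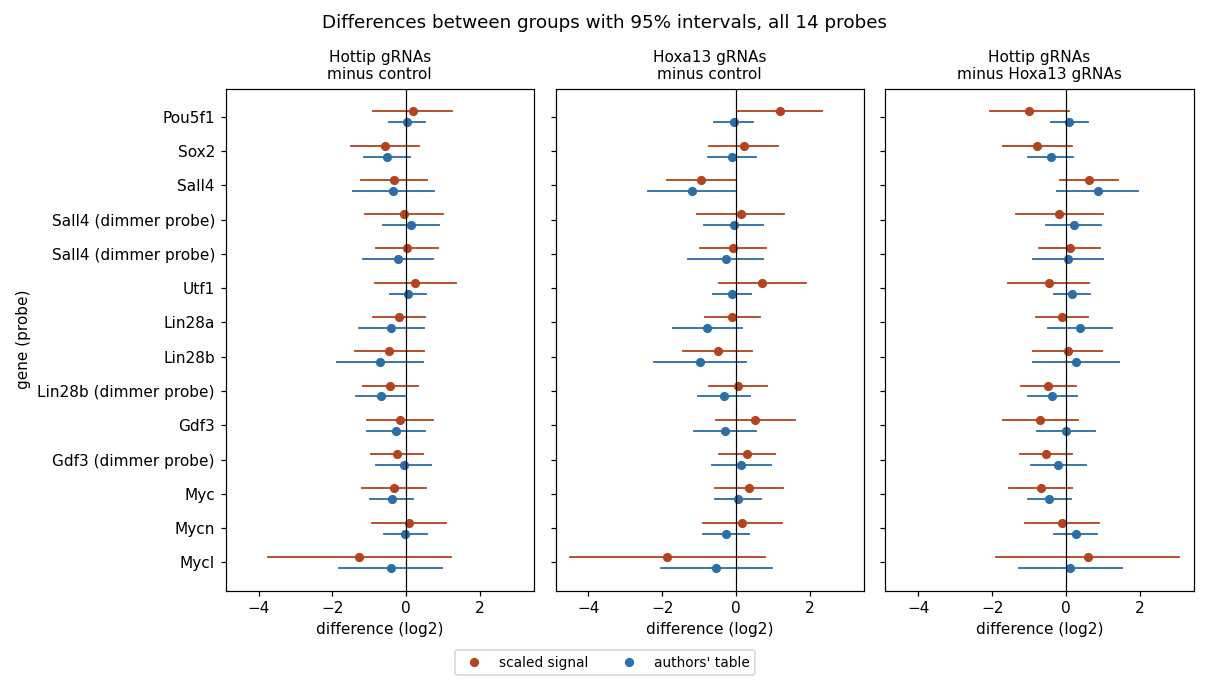
Difference between groups (log2) for all 14 probes in the 3 comparisons, with 95% intervals from limma, for the scaled signal in red and the authors' table in blue. Intervals exclude 0 for *Pou5f1* on the scaled signal and the brightest *Sall4* probe on both scales (*Hoxa13* label minus control) and for the dimmer *Lin28b* probe (*Hottip* gRNAs minus control, authors' table), and no adjusted p was under 0.05.

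The direction of the 10 genes depended on the scale in the comparisons with the *Hoxa13* label. On the scaled signal the median difference was −0.27 for *Hottip* gRNAs against the control (3 genes higher, 7 lower), 0.19 for the *Hoxa13* label against the control (6 higher, 4 lower) and −0.29 between the pools (3 higher, 7 lower). Beside these, the medians over all probes tested were −0.03, 0.19 and −0.26, and those over the bright probes (mean level over 3, 4770 to 4772 probes) were 0.15, 0.63 and −0.52. In the authors' table the medians of the 10 genes were −0.37, −0.29 and 0.14, and those of all probes −0.05, −0.04 and −0.02. Between the scales 9 of 10 genes kept their sign for *Hottip* gRNAs against the control, but 5 of 10 for each of the other comparisons.

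Genes whose groups did not overlap are counted here beside the share of all probes without overlap. For *Hottip* gRNAs against the control 1 of 10 genes (*Sall4*) had no overlap on the scaled signal, where 13.7% of all probes had none. For the *Hoxa13* label against the control it was 2 of 10 (*Pou5f1* higher, *Sall4* lower), with 23.9% of all probes. Whether *Pou5f1* separates there is not known, since the nearest control value is the saturated spot. Between the pools it was 3 of 10 (*Sox2* and *Gdf3* lower and *Sall4* higher after *Hottip* gRNAs), with 17.7%, and *Sox2* leaves that count with its outlier spot kept. The authors' table had 1 (*Myc*), 1 (*Lin28b*) and 0 of 10 genes without overlap, beside 14.3%, 10.5% and 10.1% of all probes.

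**Figure D3:**
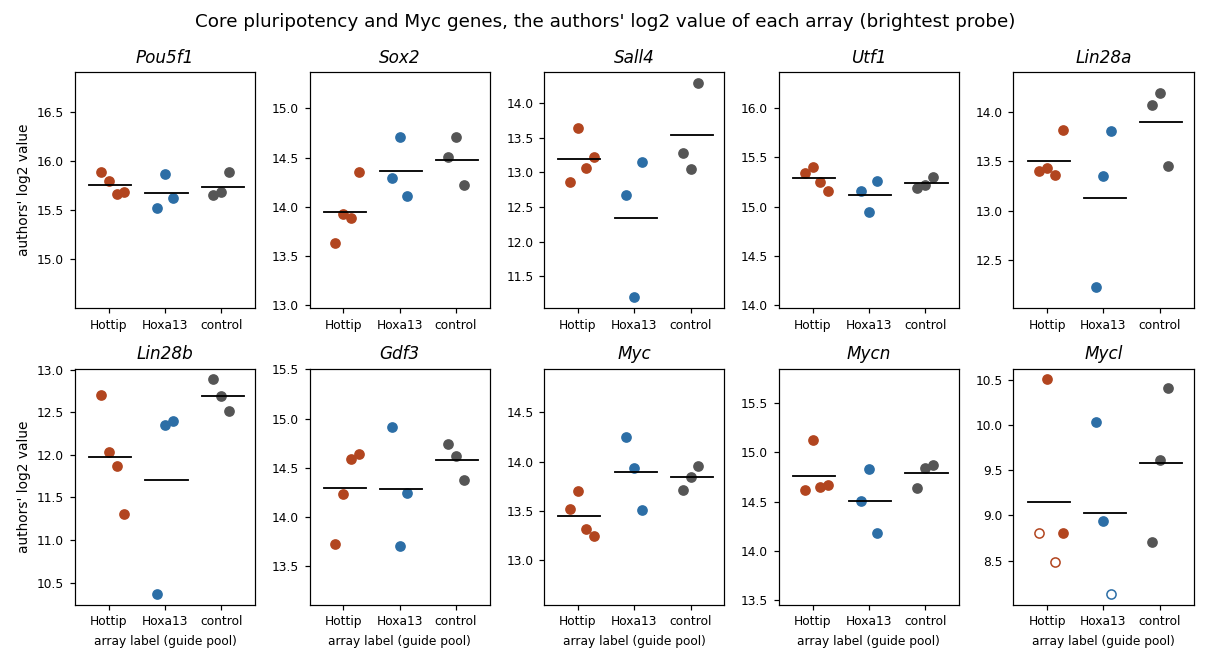
The authors' log2 value of the brightest probe of each gene, with 1 point per array, grouped by label, black lines for group means and open points for spots not well above background. All spots are drawn, outliers included, and *Pou5f1* and *Utf1* vary by under 0.5 over the 10 arrays, against 2.67 and 1.94 on the scaled signal.

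Several arrays were high or low for most of these genes at once on the scaled signal. On control replicate 3 the median of the 10 genes lay 0.71 above its mean over the arrays, and 7 of the 9 genes measured there were the highest of the control. On control replicate 1 it lay 0.38 below, with 7 of 10 genes the lowest of the control. *Hottip* gRNA replicate 4 had the lowest median, 0.70 below the mean, with 7 of 9 genes the lowest of that group. The bright probes as a whole deviated in the same direction on these arrays, by 0.24, −0.47 and −0.58. In the authors' table, whose columns share the same quantiles, 7 of 10 genes had a smaller pooled SD, among them *Pou5f1* (0.136 instead of 0.639) and *Utf1* (0.115 instead of 0.658), whereas that of *Sall4* was 0.686 instead of 0.306 and that of *Lin28b* 0.731 instead of 0.414.

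**Figure D4:**
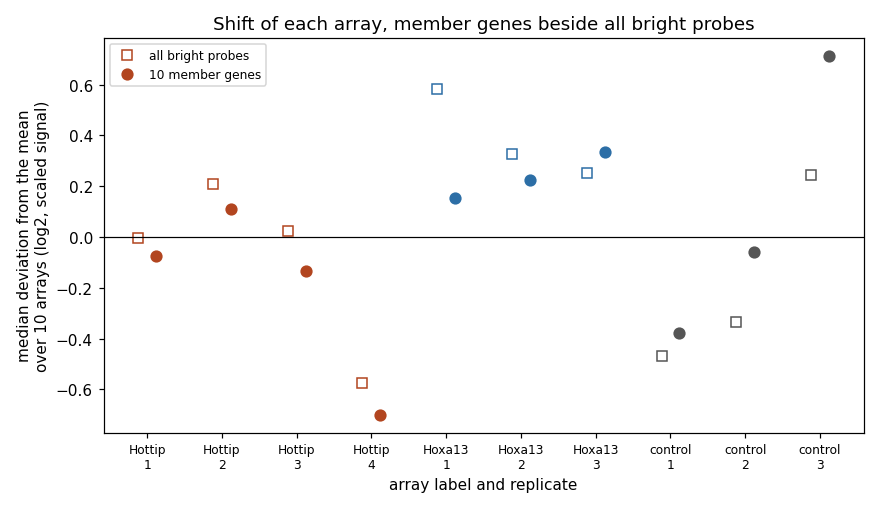
Median deviation of the 10 genes (filled circles) and of all bright probes (open squares) from their means over the 10 arrays, by array, on the scaled signal in log2 units. Both measures are lowest on *Hottip* gRNA replicate 4, and the 10 genes are highest on control replicate 3.

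Leaving out arrays called none of the 10 genes. With each of the 10 arrays left out in turn, the count of genes called stayed at 0 in all 3 comparisons (limma, lowest adjusted p 0.246). Without control replicate 3 the *Hoxa13* label minus control became 1.50 for *Pou5f1*, against 0.71 without replicate 1 of the *Hoxa13* label, and 1.29 for *Utf1* (adjusted p = 0.246 for both genes without that control array, limma), while the count over all probes rose from 40 to 130. The median of the 10 genes in that comparison ran from −0.10 to 0.57 over the 10 omissions. On the slide with all 3 groups, where 1 array remains of the *Hoxa13* label, the difference of *Sall4* against the control was −0.53 and that of *Pou5f1* 0.76, neither called (limma, assuming that the single array varies as the others do).

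The genes that work with or below these factors were read from 7 lists, of which the lists of ES cell markers and of Oct4 and Sox2 targets share 6 genes. None of the 12 ES cell markers was called in any comparison on either scale. On the scaled signal 10 of 12 had a higher mean for *Hottip* gRNAs than for the control (median 0.40) and 12 of 12 under the *Hoxa13* label (median 0.71). The bright probes as a whole had medians of 0.15 and 0.63 there, and 47.8% and 60.2% of all probes tested were higher. In the authors' table the medians of the markers were 0.07 and −0.11. *Tbx3*, a T-box factor, had the highest difference against the control in both (0.96 and 1.90), and *Zfp42* and *Tfcp2l1* the lowest (−0.20 and 0.07). *Nanog*, a homeobox factor and a target of Oct4 and Sox2, was 1.74 higher under the *Hoxa13* label than in the control (adjusted p = 0.340, limma), and *Hottip* gRNAs minus that label was −1.19 for it.

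The 8 Oct4 and Sox2 targets had 0 calls in all comparisons. Beside medians of 0.15, 0.63 and −0.52 over all bright probes, their scaled medians were 0.25, 0.97 and −0.79. In the authors' table the medians of these targets were 0.06, −0.06 and 0.04. Their extremes against the control were *Zfp42* at −0.20 and *Fbxo15* at 0.75 for *Hottip* gRNAs, and *Zfp42* at 0.44 and *Nanog* at 1.74 for the *Hoxa13* label. Of 11 tested partners of Gdf3 signalling (ligands, receptors and Smads) 0 were called, with scaled medians of 0.15, 0.23 and −0.31. *Smad4*, the common Smad, was lowest against the control for both pools (−0.54 and −0.55), and the highest were the type I receptor gene *Acvr1b* (0.49) and the co-receptor gene *Tdgf1* (1.05).

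Among relatives of the Pou, Sox and Sall factors, 1 of 9 tested genes passed, only in the authors' table, where 0.363% of all probes were called. *Sall2*, a paralogue of *Sall4*, was lower after *Hottip* gRNAs than in the control without overlap by a difference of −1.96 on the scaled signal (adjusted p = 0.0569, limma) and of −1.98 in the authors' table (adjusted p = 0.0457, limma). Its difference from the *Hoxa13* label was −2.06 (adjusted p = 0.0627, limma) and that of the *Hoxa13* label from the control 0.10. The highest of this list, *Sox15*, differed by 1.16 and 1.00 from the control (adjusted p = 0.330 and 0.452, limma).

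In the Lin28 and let-7 axis, 12 of 14 genes were matched to a probe. Of these 1 was called, between the pools, where 0.381% of all probes were called. *Hmga2*, an architectural chromatin gene that let-7 represses, was 2.09 higher after *Hottip* gRNAs than under the *Hoxa13* label (adjusted p = 0.0482, limma), without overlap, with a difference of 2.08 in the authors' table (adjusted p = 0.0743, limma). Against the control its difference was 1.88 (adjusted p = 0.0516, limma), also without overlap. No other gene of this list was called, among them *Dicer1* at −0.69 and *Trim71* at 0.46 for *Hottip* gRNAs minus control. *Imp3*, which encodes a nucleolar protein, was part of this list by name and lay at −0.11.

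None of 11 tested partners in the Myc network was called. *Max*, the shared dimer partner, had the lowest difference after *Hottip* gRNAs, at −2.75 from the control (adjusted p = 0.319, limma) and −3.00 from the *Hoxa13* label, but at −0.87 from the control in the authors' table, and the other genes compared for *Hottip* gRNAs with the control ran from −1.13 (*Mxd1*) to 0.0047 (*Mnt*) on the scaled signal. Of 17 tested Myc targets, 1 was called, between the pools, where 0.381% of all probes were called. *Ccnd2*, which encodes cyclin D2, was lower after *Hottip* gRNAs than under the *Hoxa13* label by a difference of −2.19 (adjusted p = 0.0235, limma), which was −1.50 in the authors' table (adjusted p = 0.130, limma). The list's medians were 0.34, 0.98 and −0.70 on the scaled signal, beside 0.15, 0.63 and −0.52 over all bright probes. In the authors' table the list's medians were 0.07, 0.02 and 0.05. *Npm1*, a nucleolar chaperone gene, was highest against the control for both pools, at 0.97 and 1.94.

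**Figure D5:**
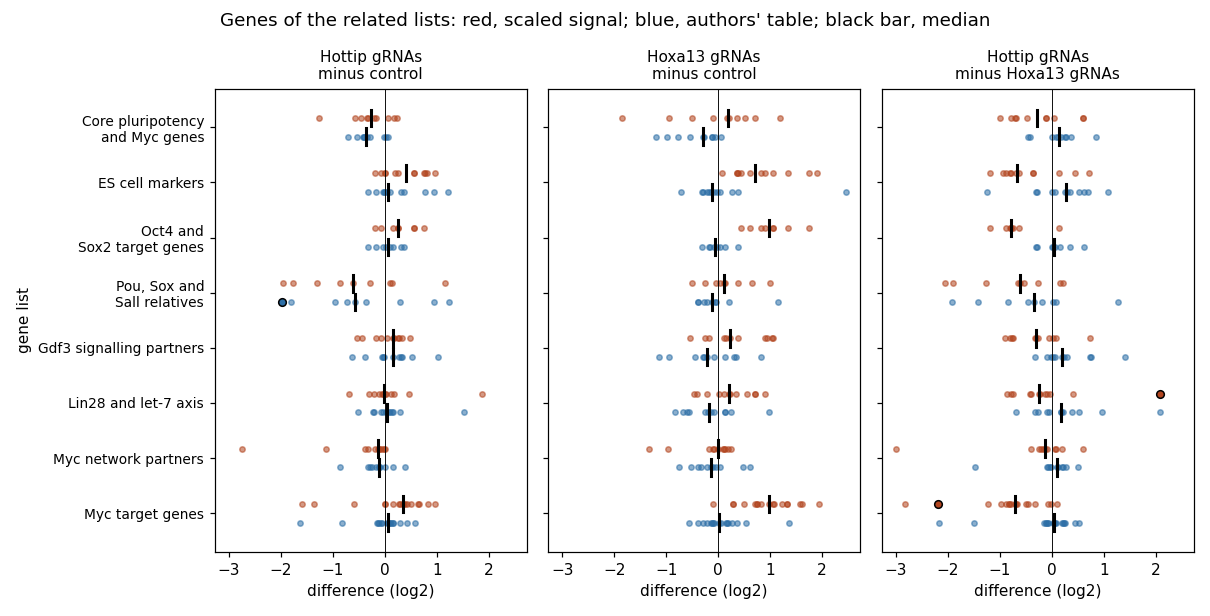
Differences between groups (log2) of the 10 core pluripotency and Myc genes and of the tested genes of 7 related lists, for the scaled signal in red and the authors' table in blue, with black bars for medians and larger outlined points for genes with an adjusted p under 0.05 (limma). The scaled medians of the ES cell markers, Oct4 and Sox2 targets and Myc targets lie above 0 against the control and below 0 between the pools, and those of the authors' table lie between −0.11 and 0.27.

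By the median of each list, markers of other cell types were mostly dim. The defining mesendoderm, neural and fibroblast lists had medians between −4.86 and −1.35 on all arrays. Single markers were brighter, and 2 or 3 of the 6 neural markers were well above background on each array. The log2 summed level of the neural list was 1.68 to 3.80. That of the fibroblast list was 2.42 and 3.06 on *Hottip* gRNA replicates 2 and 4, and −0.19 to 1.46 on the other arrays. Of 7 trophoblast markers 5 could be tested. *Cdx2* and *Gata3* were called higher for *Hottip* gRNAs against the control (adjusted p = 0.00649 for *Gata3* on the scaled signal, limma), where 0.718% of all probes were called. The list's median ran from −0.24 to 0.59 on the *Hottip* gRNA arrays. It ran from −3.17 to −2.17 under the *Hoxa13* label and from −3.08 to −2.22 in the control. The log2 summed level of the trophoblast list was 4.34 to 5.78 on *Hottip* gRNA arrays. Under the *Hoxa13* label it was 3.69 to 4.84, without overlap with the 2.94 to 3.36 of the control. *Cdx2* was well above background on 0 of 3 control arrays and passed the filter only through the other groups. Neither its difference of levels nor its p-value is therefore given. Of 6 mesendoderm markers 2 could be tested. *Fgf8* was called lower for *Hottip* gRNAs against the control, being well above background on 0 of 4 and 3 of 3 arrays. The *Hottip* gRNA side of that test was background signal, so its p-value is not given. *Eomes* differed by 0.88 the other way (adjusted p = 0.553, limma). The log2 summed level of that list was 0.67 to 1.17 on *Hottip* gRNA arrays and 0.39 to 0.64 in the control. On control replicate 3 the primitive endoderm list had a log2 summed level of 6.33, against 1.45 to 3.26 on the other 9 arrays, nearly all of it from *Dab2* at 6.27. The part of these markers in the values of the 10 genes was not tested.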

How the data were processed

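Per the labels, RNA was labelled with Cy3 and hybridised to one-colour Agilent arrays. The deposited scanner files (Feature Extraction 11.5.1.1) hold spot intensities, whose processed signal is background-subtracted and, except on *Hottip* gRNA replicates 3 and 4, detrended. The authors' deposited log2 values rank spots as the median signal minus local background does (rank correlation 1) and have equal quantiles on all arrays, so they were taken as quantile normalized. The steps between are not given in the sources used here beyond limma.

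From the log2 of the processed intensity of 59305 non-control spots each array's 75th percentile was subtracted. Outlier spots were then left out, saturated spots kept and spots of a probe averaged. Of 55681 probes 27656 were named by accession through RefSeq genes of GRCm38.p6, and the brightest probe stood for a gene. Group means were fitted over 10 arrays with limma 3.58.1 (R 4.3.3), adjusted over 22839 probes well above background on at least 3 arrays, at a threshold of 0.05, and tested on simulated data. Exact permutation tests, two-sided, were run for each gene on its own. All 10 genes are named, and from each list those called or with the highest and lowest difference. Genes and lists were chosen with earlier results of these data known. Alternatives were other normalizations, backgrounds and filters, slide or replicate as a block, subsets of arrays, the mean of a gene's probes and outliers kept. The number of arrays limits the precision.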

Additional observations from a re-analysis of the deposited data

Results flagged for a closer look

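*Sox2* is listed because all fitted *Hottip* gRNA arrays lay below the control mean and all arrays labelled *Hoxa13* gRNAs above it, with a difference between the pools of −0.780527 on the log2 scale of the scaled signal. The difference between these opposite shifts was tested only as the contrast between the pools, which did not pass (adjusted p = 0.457, limma). With the outlier spot of *Hottip* gRNA replicate 2 kept, its level of 4.29 lies above the control mean of 4.27, and the pattern no longer holds.

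In the authors' table, 1 of the 4 *Hottip* gRNA arrays stood apart from the other 3 for 4 of the 14 probes, where chance alone gives such a gap in about 1 in 20 groups. The gap was 0.837 of the group's range for the *Sall4* probe A_55_P2173546 (replicate 4 low), 0.840 for *Lin28a* (replicate 4 high), 0.909 for *Mycn* (replicate 2 high) and 0.842 for *Mycl* (replicate 2 high). The *Mycl* probe was well above background on 2 of these 4 arrays. No probe with all 4 arrays measured passed this limit on the scaled signal.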

How the results depend on the processing

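None of the 10 genes was called under any of the 22 alternatives (limma, lowest adjusted p 0.240), while directions, sizes and counts over all probes moved, and the cause was not tested. In what follows H is *Hottip* gRNAs minus control, X the *Hoxa13* label minus control and D *Hottip* gRNAs minus the *Hoxa13* label. Under quantile normalization the sign turned for *Mycn* (−0.11) in H, for *Sox2* (−0.36), *Utf1* (−0.00014), *Gdf3* (−0.12), *Myc* (−0.0189) and *Mycn* (−0.44) in X and for *Utf1* (0.15), *Lin28a* (0.14) and *Mycn* (0.33) in D, and the median of the 10 genes became −0.39 in X and 0.12 in D. *Pou5f1* in X kept its sign at 0.20. It turned in the authors' table for *Mycn* (−0.022) in H, for *Pou5f1* (−0.065), *Sox2* (−0.11), *Utf1* (−0.12), *Gdf3* (−0.29) and *Mycn* (−0.28) in X and for *Pou5f1* (0.0846), *Utf1* (0.17), *Lin28a* (0.38), *Gdf3* (0.0073) and *Mycn* (0.26) in D, as did the median of the 10 genes in X (−0.29) and D (0.14). With the slide as a block, and equally on the slide with all 3 groups, it turned for *Lin28a* (0.28), *Lin28b* (0.0359), *Myc* (−0.10) and *Mycn* (−0.0372) in X and for *Lin28b* (−0.50) and *Mycn* (0.10) in D, and *Mycl* became −4.28 in X and 3.01 in D, *Pou5f1* 0.76 in X and −0.59 in D, and *Myc* −0.24 in D. In D it also turned for *Lin28a* with normexp (0.16), for *Lin28b* with the mean of probes (−0.26), the detrended arrays only (−0.12) and outliers kept (−0.0364), and for *Mycn* with the detrended arrays only (0.33). *Mycl* in H became 0.12 on the detrended arrays, and with normexp it was −0.21 in H, −0.34 in X and 0.13 in D.

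The count of probes called (164 in H, 40 in X, 87 in D) became 83 in H and 25 in X in the authors' table, 16 in X and 31 in D without a filter on dim probes, 5, 0 and 0 for probes well above background on all arrays, 68 in X with the slide as a block, 48 in D on the slide with all groups, 22 in X with only the groups compared, 36 in H and 34 in D on detrended arrays, and 107 in H and 17 in X with outliers kept. Averaging the probes of a gene gives no such count. Arrays with the same replicate number in 2 groups had correlations of deviations of −0.233 to 0.141. Arrays with different numbers were not compared, so whether the numbers pair the samples is not settled. With the replicate block 14, 2 and 8 probes were called, and *Mycn* in D became 0.14.

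With each array left out in turn, probes called ran from 56 (without control replicate 2) to 240 (without control replicate 3) in H, from 3 (without *Hoxa13* label replicate 3) to 130 (without control replicate 3) in X and from 11 (without *Hoxa13* label replicate 2) to 116 (without control replicate 3) in D. Over these omissions *Pou5f1* ran from −0.10 to 0.49, *Utf1* from −0.15 to 0.82, *Gdf3* from −0.48 to 0.20 and *Mycn* from −0.25 to 0.50 in H. In X *Sox2* ran from −0.10 to 0.58, *Lin28a* from −0.29 to 0.0146 and *Mycn* from −0.15 to 0.60. In D *Lin28a* ran from −0.22 to 0.0885, *Lin28b* from −0.24 to 0.31, *Mycn* from −0.34 to 0.14 and *Mycl* from −0.61 to 1.43. The 3 or 4 arrays a group, saturation of *Pou5f1* on 1 control array and the dim *Mycl* probe limit what could be seen.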
